A study of Drosophila melanogaster with 13 samples.

Results

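aop and pnt encode a pair of ETS transcription factors, and their loci were mapped here for binding of CREB and CRTC in the mushroom bodies (MBs) of Drosophila melanogaster. A CREB/CRTC region was a CRTC-binding site with a CREB-binding site at most 200 bp from its edge, and a region belonged to the gene whose symbol the authors' deposited table gave it. By this rule aop had 8 regions and pnt had 6, which made 14 of the 4995 regions of the series. The 4995 regions were assigned to 2833 genes.

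The labels give the strain of all flies as CS10, the wild-type line that the paper writes as w(CS10), and the purified nuclei bore a FLAG-KASH tag at the nuclear envelope, expressed by the MBp-LexA driver. Because the driver is weak in α′/β′ neurons, nuclei of this class may be under-represented beside those of α/β and γ neurons. Chromatin was precipitated with custom-raised antibodies against CRTC or CREB. Per the paper, the CREB antibody was raised against the repressor isoform CREB2b and recognises all major isoforms, so a CREB-binding site does not tell them apart. Flies were taken 1 day after spaced training (3 CRTC and 3 CREB libraries) or naive (3 CRTC and 3 CREB libraries), with 1 library of input DNA from naive flies. In spaced training, sessions pairing an odor with electric shocks are separated by rests. The deposited site lists hold 5990 CRTC-binding and 7243 CREB-binding sites, 1 combined list per protein, so no site has a value per library or an error between replicates. Every comparison below is a description of these lists, without a test, and says nothing of training against naive. MB identity could not be checked against marker genes, because a site list holds no expression.

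ETS factors share a DNA-binding domain that recognises a GGA core. The protein of aop, also known as Yan or Anterior open, is a transcriptional repressor, and the protein of pnt, Pointed, is an activator that competes with Yan for the same sites. Both act at the end of the Egfr/Ras/MAPK cascade: when the MAPK rolled is active, it phosphorylates Yan, which then leaves the nucleus and is degraded, and it phosphorylates one of the Pointed isoforms, which becomes a stronger activator. The pair is best known from the developing eye, where the balance between them sets when cells take a photoreceptor fate. CREB binds DNA at cAMP response elements, and CRTC is a coactivator that enters the nucleus when dephosphorylated and binds to CREB.

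Regions were few per gene in most of the genome, and both ETS loci stood among the genes with many. Of the 2833 genes with a region, 73 had at least 6 (2.58%). 19 genes had more regions than aop and 49 had more than pnt. Measured against the protein-coding genes of the RefSeq annotation, 19.4% had a region and 0.523% had at least 6.

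At aop, on chromosome arm 2L of build dm3, the regions lay over 17.2 kb, with the highest CRTC score at 1 start site, the next highest at the other and both high and low scores between them. By the deposited distances the gene runs toward lower coordinates, and the regions were measured against 2 transcription start sites (TSSs), the outer at 2178753 and the inner at 2161527, 17226 bp farther downstream. The region at chr2L:2178684-2178807 covered the outer TSS. Its CRTC peak score was 23.9, with a false discovery rate (FDR) of 0, and 99.3% of all CRTC-binding sites scored lower. It ranked 44th of the 5990 sites. The CREB-binding site in it, at chr2L:2178673-2178805, shared 121 bp with it and scored 25.0, which 99.1% of CREB-binding sites did not reach. Both proteins thus had at the outer aop TSS a site in the top hundredth of their own list. A peak score comes from the authors' calling of peaks against input DNA and has no unit. Each score is therefore set here against its own list, whose median was 4.21 for CRTC and 3.67 for CREB.

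The region at the inner TSS, chr2L:2161583-2161734, lay 56 bp upstream of it and had the second highest CRTC score of the locus, 8.76 (84.1% of the list lower, FDR 0.00106). CREB was spread there over 3 sites within 200 bp. The site at chr2L:2161684-2161748 overlapped the region by 50 bp and scored 3.17, the site at chr2L:2161518-2161561 lay 22 bp away and scored 4.08, and the site at chr2L:2161408-2161470 lay 113 bp away and scored 3.62. This was the aop region where the standing of both proteins differed most, since 41.2% of CREB-binding sites scored below the overlapping site and 56.2% below the highest of the 3. Of all 4995 regions, 15 in 14 genes had 3 CREB-binding sites (0.300%), a count that was made after the aop values were seen.

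The other 6 aop regions fell between these start sites. Nearest to the outer TSS, the region at chr2L:2178258-2178371 lay 382 bp downstream and scored 3.04 for CRTC and 3.77 for CREB. A pair of regions followed at 2382 and 3144 bp downstream. The farther of them, chr2L:2175493-2175609, scored 7.17 for CRTC and 7.38 for CREB, while the nearer, chr2L:2176290-2176371, scored 2.90 and 1.88. Strong and weak regions thus stood within 681 bp of each other. Upstream of the inner TSS, the region at chr2L:2162979-2163120 (1452 bp away) scored 5.74 for CRTC and 6.42 for CREB. The region at chr2L:2163711-2163803 (2184 bp away) scored 2.71 for CRTC and 2.22 for CREB. The region at chr2L:2169015-2169080, 7488 bp from the inner TSS and the one farthest from any start, had the lowest CRTC score of the locus, 2.10, with 2.17 for CREB. These positions are given without exon or intron, since no annotation of build dm3 was used here.

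**Figure D1:**
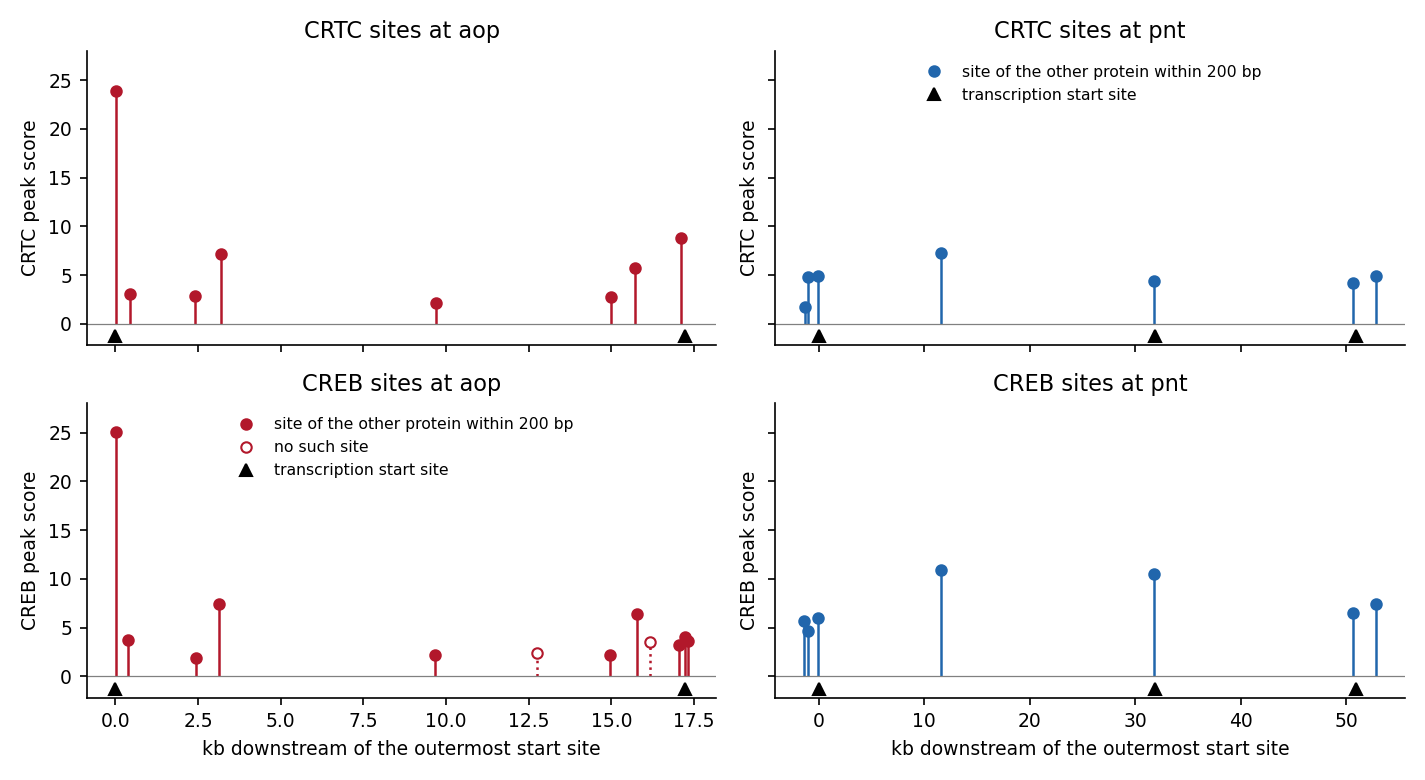
Peak scores (no unit) of CRTC-binding sites (top) and CREB-binding sites (bottom) at aop (left) and pnt (right), by distance in kb downstream of the outermost TSS of each gene, with triangles at the TSSs. Filled circles have a site of the other protein within 200 bp and open circles do not. The highest site of both proteins at aop (23.9 and 25.0) is at the outermost TSS, while the CRTC scores of the 6 pnt regions lie between 4.14 and 7.22. The lowest CRTC site beside pnt (1.74) was assigned to DNApol-epsilon, and a CREB site lies next to it.

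At pnt, on chromosome arm 3R, the 6 regions were spread over 53.9 kb. Their CRTC scores ran from 4.14 to 4.93 in 5 regions and reached 7.22 in the other. The gene also runs toward lower coordinates by the deposited distances, which gave 3 TSSs, an outer at 19171888 to 19171889, a middle at 19140037 and an inner at 19120959 to 19120960. The middle and the inner TSS lay 31852 and 50929 bp downstream of the outer. pnt makes proteins with different N-termini from different promoters, but which TSS serves which isoform is not given by the files. Each of the 3 TSSs had a region within 500 bp, but the TSSs were read from the distances of the regions themselves. The middle TSS was given by 1 region, the one near it. A TSS that is nearest to no region would not be seen at either gene.

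The region at chr3R:19171874-19172022 covered the outer TSS and scored 4.93 for CRTC and 5.95 for CREB. The region at chr3R:19140104-19140188, 67 bp upstream of the middle TSS, scored 4.44 for CRTC, near the median of the list. Its CREB-binding site, chr3R:19140026-19140162, scored 10.5 with an FDR of 0, above 89.4% of CREB-binding sites. The middle pnt TSS therefore showed the reverse of the inner aop TSS, with CREB standing higher in its list than CRTC in its own. At the inner TSS, the region at chr3R:19121176-19121292 (216 bp upstream) scored 4.14 for CRTC, the lowest of pnt, and 6.46 for CREB.

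The highest pnt scores of both proteins were not at a TSS. The region at chr3R:19160184-19160328 lay 11560 bp downstream of the outer TSS, in the long interval before the middle one, and scored 7.22 for CRTC (FDR 0.000728) and 10.9 for CREB (FDR 0). It stood above 77.1% of CRTC-binding and 90.1% of CREB-binding sites. The remaining regions lay 1807 bp downstream of the inner TSS, at chr3R:19119008-19119152, and 915 bp upstream of the outer, at chr3R:19172804-19172888. The inner one scored 4.93 for CRTC and 7.44 for CREB, and the outer one 4.81 for CRTC and 4.61 for CREB.

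Within 500 bp of a TSS lay 3 of the 8 aop regions and 3 of the 6 pnt regions, against 63.8% of all regions. At aop the median CRTC score was 8.76 in the 3 promoter regions and 2.90 in the 5 others. At pnt these medians were 4.44 and 4.93 (3 regions each), and over all regions they were 4.47 (3186 regions) and 5.02 (1809 regions). The median CRTC score was thus higher near the TSS at aop but not at pnt or over all regions, with few regions behind each median at both loci. The aop promoter region 382 bp from the outer TSS scored 3.04, below the farther regions at 7.17 and 5.74 and above the rest of them. For CREB, the medians of promoter and other regions were 3.77 and 2.22 at aop, 6.46 and 7.44 at pnt, and 4.63 and 4.58 over all regions.

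**Figure D2:**
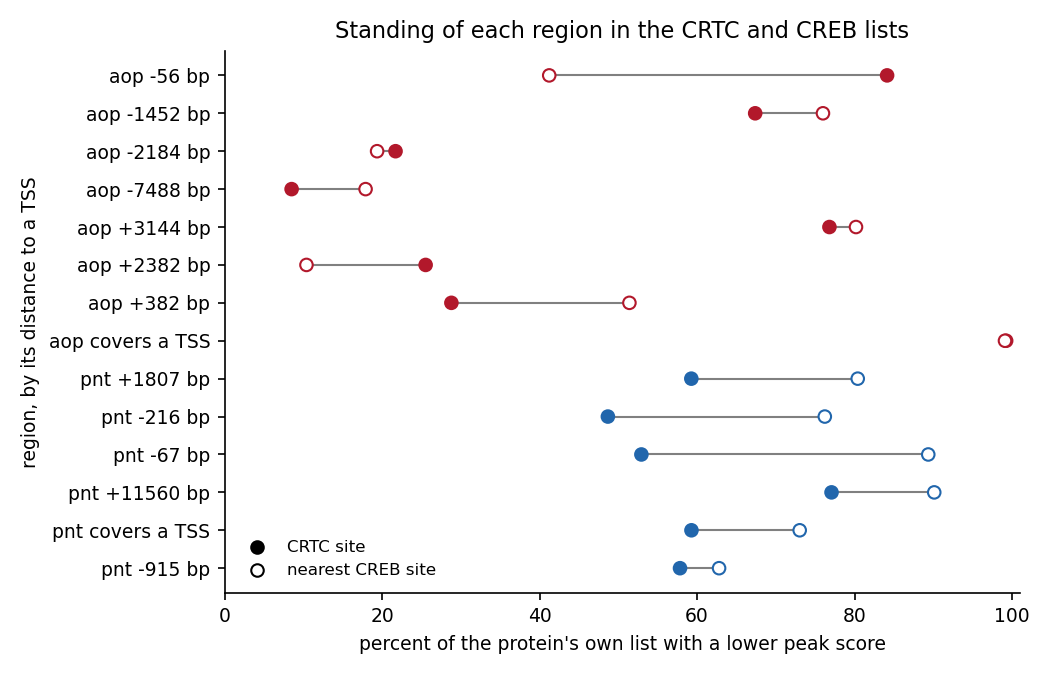
Percent of the protein's own site list with a lower peak score (horizontal axis) for the CRTC-binding site (filled) and the nearest CREB-binding site (open) of each aop region (red) and pnt region (blue), named by distance to a TSS (negative, upstream). The CREB circle is to the right of the CRTC circle in 6 of 6 pnt regions and in 4 of 8 aop regions.

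The loci differed in how evenly the proteins were distributed. The aop regions ran over nearly the whole CRTC list, with 8.48 to 99.3% of sites scoring lower, a range of 90.8 percentage points, and 4 of the 8 scored below the median of the list. The median CRTC score was 4.39 (SD 7.21 among 8 regions), or 7.17 if only the regions at least 100 bp wide, or the highest of those within 1000 bp of each other, were counted. The pnt regions ran from 48.7 to 77.1%, a range of 28.4 points, with 1 of 6 below the list median and a median score of 4.87 (SD 1.09 among 6 regions). The median CRTC score over all regions was 4.66.

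Since a range grows with the number of regions, each locus was also set beside the genes with as many regions, a comparison chosen after the values were seen. Of the 14 genes with 8 regions, aop included, 12 had a smaller range of CRTC percentiles than aop and 1 a larger one, with a median of 81.1 points over the 14. Of the 24 genes with 6 regions, 1 had a smaller range than pnt and 22 a larger one, with a median of 71.5 points over the 24. pnt was also long for its number of regions. Its 53880 bp between the outermost regions compared with a median of 16281 bp for genes with 6 regions, and 3 of them were longer. The 17224 bp of aop compared with a median of 29631 bp for genes with 8 regions, of which 8 were longer. Per 10 kb, aop had 4.64 regions and pnt 1.11.

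**Figure D3:**
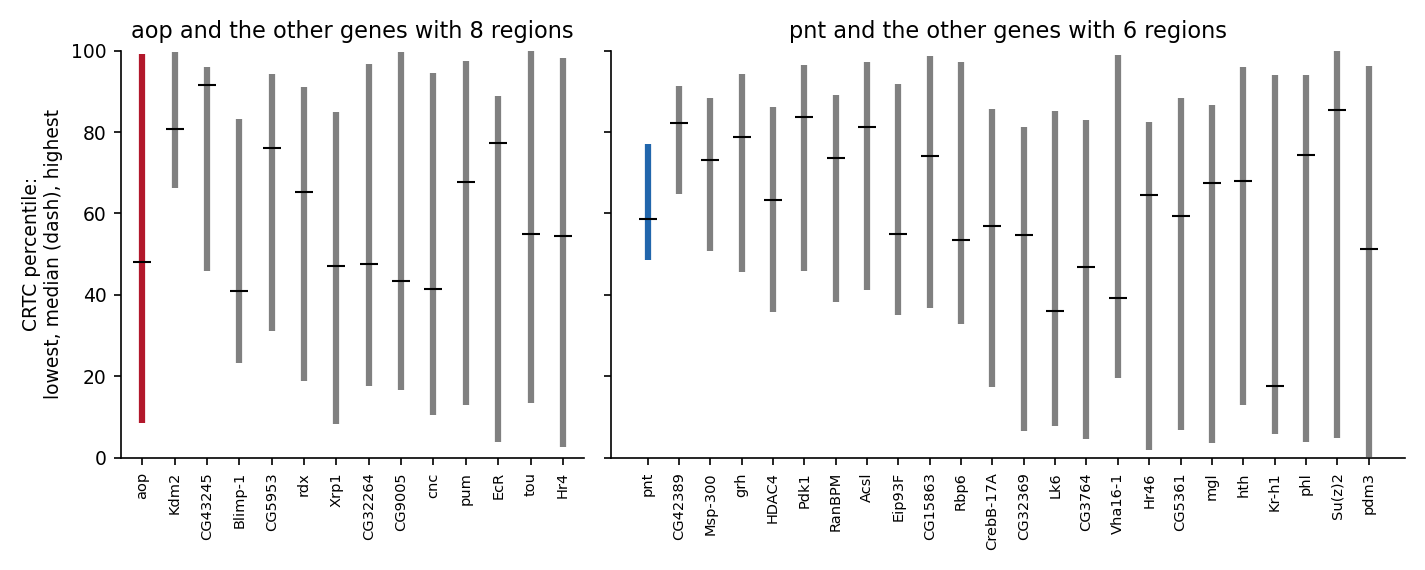
Range of the CRTC percentiles (percent of CRTC-binding sites with a lower score) from the lowest to the highest region of each gene, with a dash at the median, for aop and the other genes with 8 regions (left) and for pnt and the other genes with 6 regions (right), sorted by range after the first. The aop bar spans 90.8 points and the pnt bar 28.4 points.

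At pnt, CREB stood higher in its own list than CRTC in its own. Per the paper, the lists were filtered at unlike read densities, so a gap between percentiles does not compare the strength of binding. Over all regions the median percentile was 62.8 for CREB and 55.8 for CRTC. In 6 of 6 pnt regions the CREB-binding site had the higher percentile in its own list, against 4 of 8 at aop and 66.0% of all regions. The median difference between the percentiles, CRTC minus CREB, was -17.4 points at pnt, -1.61 at aop and -4.26 over all regions. Of the 24 genes with 6 regions, 4 had the higher percentile for CREB in every region, pnt among them. The median CREB score was 6.95 (SD 2.55) at pnt and 3.47 (SD 7.76) at aop, beside 4.62 over all regions.

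CREB and CRTC scores ran together at aop, as they did over the series. The correlation of log2 scores over the 8 aop regions was r = 0.886 (Spearman's rho = 0.786), and r = 0.695 over the 7 without the region at the outer TSS. Over the 6 pnt regions r was 0.456 (rho = 0.257), in a narrow range of CRTC scores, and over all 4995 regions r was 0.840 (rho = 0.816). The CRTC and CREB lists share the input library, and regions of 1 gene share a locus, so these values are descriptions.

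**Figure D4:**
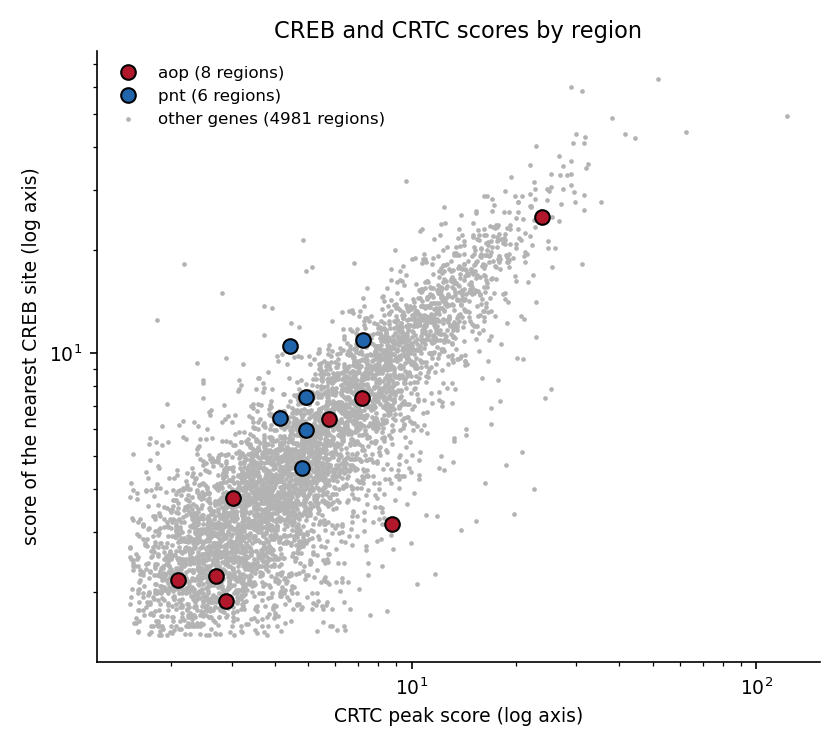
Score of the nearest CREB-binding site (vertical, log axis) against the CRTC peak score (horizontal, log axis) of each region, for aop (8, red), pnt (6, blue) and the 4981 regions of other genes (grey). The 6 pnt regions sit close together on the horizontal axis (4.14 to 7.22), the aop regions run from 2.10 to 23.9, and the aop region at a CRTC score of 8.76 has a CREB score of 3.17.

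The CREB-binding site overlapped the CRTC-binding site in all 14 regions of both genes, as in 90.7% of all regions. The overlap was 28 to 121 bp at aop and 40 to 112 bp at pnt. The centres of a region and its nearest CREB-binding site were a median of 54.2 bp apart at aop and 23 bp at pnt. Over all regions, those without an overlap included, the median was 22 bp. At the outer aop TSS the centres were 6.5 bp apart, the closest of the 14.

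Some CREB-binding sites at aop had no CRTC-binding site within 200 bp. Of the 10 CREB-binding sites between the outermost aop regions, 2 were of this kind, and of the 6 at pnt there were 0. The others, 8 at aop and 6 at pnt, are the partners that the rule for a region requires. These counts therefore cannot be compared with the 30.1% of the CREB list that had no CRTC-binding site within 200 bp. Each of the 8 and 6 CRTC-binding sites between the outermost regions of aop and pnt was itself a region. Each thus had a CREB-binding site within 200 bp by the rule for a region. The stretch is bounded by such regions, so these counts cannot be compared with the 83.4% of the CRTC list that did. None of these CRTC-binding sites was assigned to another gene. Outside them, aop stood alone, with 14182 bp to the next CRTC-binding site on the lower side and 14722 bp on the upper side, where the next region belonged to CG34172. Upstream of pnt, a CRTC-binding site of 20 bp, chr3R:19173194-19173214, followed 306 bp beyond the last pnt region with a score of 1.74 and was assigned to DNApol-epsilon, which encodes a replicative DNA polymerase. The CREB-binding site beside it, chr3R:19173242-19173378, scored 5.65, above that in the last pnt region (4.61). The assignment to genes is that of the deposited table.

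Of the other 6 ETS genes, 3 had a region, beside the 19.4% of all protein-coding genes. Eip74EF, an ecdysone-induced factor, had 10 regions, 2 of them within 500 bp of a TSS, and a highest CRTC score of 19.2. Ets98B had 2 regions (highest CRTC score 4.09) and Ets21C, a stress-induced factor, had 1 (4.60). Ets65A, Ets96B and Ets97D were listed with 0. The aop region at the outer TSS had the highest CRTC score of the family. The median CRTC score was higher at Eip74EF, 12.6 over its 10 regions, against 4.39 at aop and 4.87 at pnt.

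Among 37 other genes of the Egfr/Ras/MAPK pathway upstream and around both factors, 24 had at least 1 region, 69 regions in all, and 3 had at least 6, beside 19.4% and 0.523% of all protein-coding genes. The same 19.4% is the background for each group of the list. The list was drawn up with earlier results of these data known, and its share is a description. Of 7 ligands and ligand-processing genes, 6 had a region. spi, the main Egfr ligand, had 7, 4 of them within 500 bp of a TSS, with a highest CRTC score of 13.7. rho, the protease that releases the ligand, had 1 (6.75), and vn, a neuregulin-like ligand, had 1 (5.90). Krn (2.88), ru (3.03) and S (2.80) had 1 each, with scores below the median of the CRTC list, and grk had 0. Of 5 receptor tyrosine kinases, Egfr had 4 regions, with a highest CRTC score of 14.8 and 0 within 500 bp of a TSS, while sev, btl, htl and tor had 0.

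The cascade between receptor and nucleus was covered in part. Of 8 adaptors and Ras regulators, 5 had a region, and drk, Sos and Shc had 0. Ras85D had 3 regions (highest CRTC score 7.04, median 2.13) and Gap1 had 3 (highest 5.97, median 2.70). csw had 2 (5.73), dos had 2 (4.11) and Nf1 had 1 (1.67). Of 6 genes of the MAPK module, 2 had a region. These were phl, the Raf kinase, with 6 regions (13.3), and Mkp3, a phosphatase that acts on the MAPK, with 4 regions and a score of 26.0, ranked 31st and above the best aop region. The MEK gene Dsor1, the MAPK gene rl and the scaffolds ksr and cnk had 0.

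Of the 4 inhibitors of the pathway listed, 4 had regions. aos, a secreted inhibitor of Egfr, had 3 (10.9), and sty, the sprouty gene, had 3 (9.79). kek1, a transmembrane inhibitor, had 2 (6.09), and Cbl, a ubiquitin ligase, had 2 (3.93). Of 7 nuclear partners and targets, 6 had a region. edl, whose small protein binds Yan and Pointed, had 2 regions, both within 500 bp of a TSS, with a highest CRTC score of 22.1, ranked 64th. ttk, a zinc-finger repressor, had 9 (10.3), lz, a Runx factor, had 3 (19.2), and cic, a repressor relieved by MAPK, had 5 (10.7). gro had 2 (6.74), phyl had 1 (3.04) and sina had 0.

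**Figure D5:**
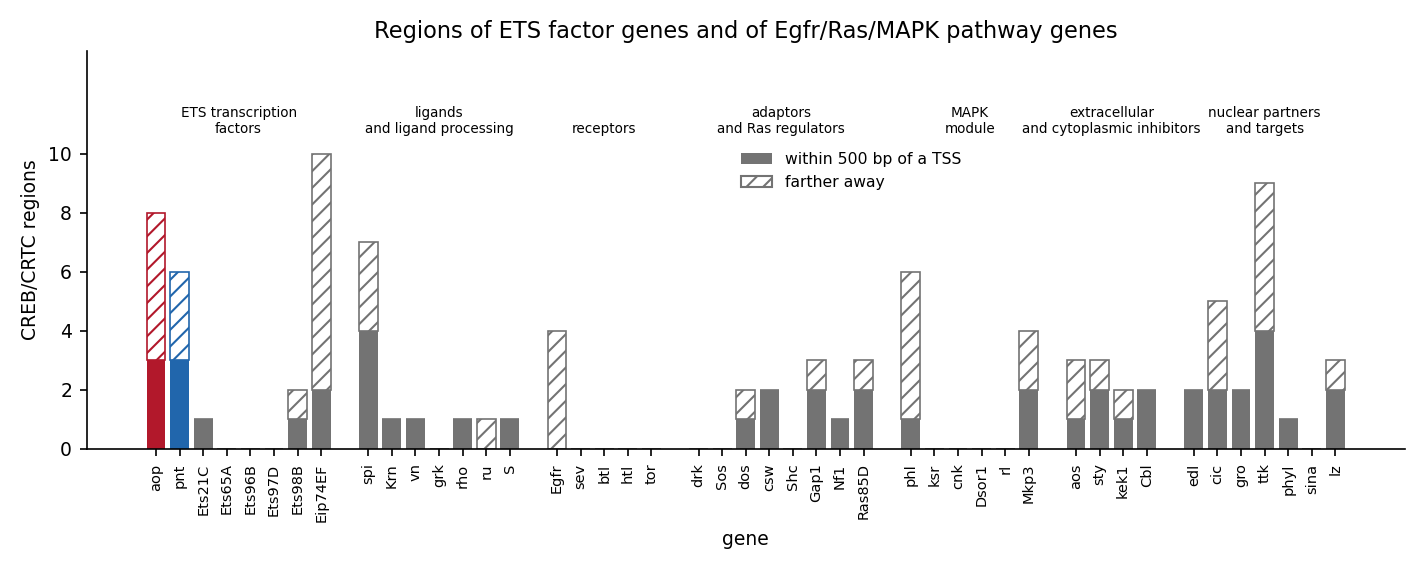
Number of CREB/CRTC regions (vertical axis) of the 8 ETS genes and 37 Egfr/Ras/MAPK pathway genes, grouped by role, with regions within 500 bp of a TSS solid and regions farther away hatched. aop has 8 and pnt 6, and among the other genes Eip74EF (10), ttk (9), spi (7) and phl (6) have as many as pnt or more.

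The genes whose pattern was most like that of each locus were found among genes with the same number of regions, by the distance over the median CRTC score, the median CREB score (both log2) and the share of regions within 500 bp of a TSS, each divided by its SD. For aop, of 13 candidates, these were tou (distance 0.261), CG32264 (0.354) and Xrp1 (0.624). tou, a chromatin-remodelling factor gene, had median scores of 4.94 for CRTC and 3.77 for CREB and 1 very strong region, with a CRTC score of 62.5. For pnt, of 23 candidates, they were Hr46 (0.260), Eip93F (0.546) and mgl (0.576). Hr46, a nuclear receptor gene, had median scores of 5.47 for CRTC and 6.36 for CREB, and a highest CRTC score of 8.40.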

How the data were processed

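CREB and CRTC ChIP-seq was performed by the authors on purified MB nuclei of spaced-trained and naive flies. The submitters' processing notes name build dm3 and DESeq2. Per the paper's methods, peaks were called against input DNA by the peak callers PICS and ERD, where their calls overlapped. They were kept if found in at least 2 of 3 replicates. ERD peaks were also filtered by read density, at a different limit for CREB and for CRTC. The peak scores and false discovery rates (q-values, here FDR) were made by the authors. Which of the callers gave them is not stated in the paper. For each protein, 1 deposited list holds both. The paper's text introduces these lists with binding 1 day after spaced training, and whether naive libraries also entered the calls is not given in the sources used here. Read depth is not in the lists, so the depth behind a site is unknown. The authors' deposited table of regions also holds their own comparison of spaced-trained with naive flies in DESeq2, namely fold changes and adjusted p-values, which was not used here. From this table, positions, gene symbols and TSS distances were taken.

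Sites were joined, ranked and counted with Python 3.11.15, NumPy 2.4.6 and pandas 2.3.3, and plotted with Matplotlib 3.10.9. Edges at most 200 bp apart made a region, at most 500 bp from a TSS a promoter region. The nearest CREB-binding site gave the CREB score. A percentile is the share of a list with a lower score. Width is end minus start. The files do not say whether positions count from 0 or 1, which leaves 1 bp open. Scripts were tested on simulated data. No test between groups was run.

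The members and gene lists were chosen with earlier results of these data known. Named were aop, pnt, the listed ETS and pathway genes, the 3 genes most like each member, and genes of sites at the edge of a locus. Of the 2833 symbols, 2303 are symbols in the RefSeq table of Release 6 and 476 are synonyms of 1 gene. All 45 listed genes matched. No sequence is shown, since no dm3 genome was used here. Pairing, width, score, FDR, promoter and clustering limits were varied.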

Additional observations from a re-analysis of the deposited data

Results flagged for a closer look

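Apart from the regions, 2 CREB-binding sites between the outermost aop regions had no CRTC-binding site within 200 bp, and they are given here because they lie outside the regions compared above. The site at chr2L:2162525-2162626 had a CREB score of 3.52 (FDR 0.00367), with 47.3% of the CREB list lower, and its nearest CRTC-binding site was 353 bp away. The site at chr2L:2165963-2166030 had a CREB score of 2.38 (FDR 0.00706), with 23.1% of the list lower, and its nearest CRTC-binding site was 2160 bp away. Of all CREB-binding sites, 30.1% had no CRTC-binding site within 200 bp, a share not comparable with a stretch chosen by its regions. Whether CRTC binding below the calling threshold is present at these 2 positions was not tested.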

How the results depend on the processing

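The number of aop regions depended on the strength asked of a CRTC-binding site. It was 4 with a CRTC score of at least the list median, 5 with a site at least 100 bp wide and 4 with an FDR of at most 0.005, against 8 as reported. The number of pnt regions was 5, 4 and 6 under these limits, against 6. Matching symbols also through RefSeq synonyms, asking for at least 1 bp shared with a CREB-binding site, or for one at most 100 bp away, left both counts at 8 and 6. Promoter regions numbered 2 at aop and 2 at pnt within 200 bp, and 3 and 4 within 1000 bp. The median CREB score with the highest site within 200 bp was 3.92 at aop and 6.95 at pnt. Of 24 alternative values, 21 moved by less than the spread among regions or, for a count, by at most 1.5 times, and 3 moved by more. This measure is loose for aop, whose CRTC scores had an SD of 7.21. With only sites at least 100 bp wide, the median CRTC score went from 4.39 to 7.17 at aop and from 4.87 to 4.93 at pnt. With the highest of the sites within 1000 bp of each other, it was 7.17 at aop and 4.93 at pnt. The order of the loci was thus reversed under both settings, although none of these values was counted as moved. No paired analysis was possible because the site lists combine the libraries and hold no values per replicate, and for the same reason leaving out each replicate could not be run. Depth limits the lists in a way that the files do not show: a gene with 0 regions had no site past the caller's threshold, which does not show that it was unbound.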

Other observations

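Peak scores repeat exactly between sites. The 5990 CRTC-binding sites had 2468 distinct scores, and 75.2% of them shared a score with another site. The 7243 CREB-binding sites had 2410 distinct scores, and 80.8% shared one. At aop, the CRTC score of 2.90 was held by 47 sites of the CRTC list and the CREB score of 3.17 by 56 sites of the CREB list. At pnt, the CRTC score of 4.14 was held by 30 sites and the CREB score of 5.95 by 21. The score at the outer aop TSS was held by 1 site in each list. The percentile of a shared score counts only the sites below it. This was looked at after the values were seen.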
